A study of Homo sapiens with 3 samples.

Results

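The genes described here are 34 well-known targets of the transcription factor p53, measured after depletion of UHRF1 in HCT116 cells. Members were fixed by symbol, and each was represented by every probe set that the array annotation pairs with that symbol alone. This gave 77 probe sets for 31 genes, of 54613 probe sets and 19775 named genes in all. BTG2, BBC3 and FDXR were not analysed here.

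HCT116 is a human colorectal carcinoma line that carries wild-type p53. The cells received a lentivirus with a scrambled short hairpin RNA (1 array), UHRF1 hairpin 2 (1 array) or UHRF1 hairpin 5 (1 array), and RNA was taken after 6 days under puromycin, so all 3 cultures share the virus and the drug. UHRF1 reads hemimethylated DNA and histone H3 and is needed to keep DNA methylation through replication, and the comparison looked for genes it regulates. Values are log2 expression per probe set, for which depth in counts does not apply, and precision is limited by having 3 arrays.

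p53 is held low in unstressed cells by the ubiquitin ligase MDM2, itself a product of p53. Damage or other stress stabilises p53, which binds DNA as a tetramer and switches on genes that stop the cell cycle, repair DNA, kill the cell or feed back on p53. In colorectal cells the cell cycle inhibitor CDKN1A is among its strongest targets.

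The targeted gene was lower on both hairpin arrays. UHRF1 read 8.54 in the control, 6.195 under hairpin 2 and 6.67 under hairpin 5, a 5.09-fold and a 3.68-fold lower level. The epithelial genes EPCAM (10.23), KRT18 (12.26) and KRT19 (11.74) were bright on the control array, the leukocyte genes PTPRC, CD3E and CD14 lay under the tested level of 3.28, and the epithelial gene VIL1 also lay under it (3.13). Of the fibroblast and endothelial genes, COL1A1 read 5.82, 6.39 and 5.75 and PECAM1 3.34, 3.38 and 3.60 on the control, hairpin 2 and hairpin 5 arrays, while COL3A1, DCN and VWF lay under the tested level. Array medians ran from 2.98 to 3.04. Interferon-stimulated genes stood far higher on the hairpin 2 array, with IFI6 at 5.90 in the control, 11.63 under hairpin 2 and 6.37 under hairpin 5. With hairpin 5 the median difference of the 5 interferon-stimulated reference genes was 0.34. IFIT1, under the tested level in the control (3.22), read 10.01 under hairpin 2 and 5.41 under hairpin 5. Of 5 genes driven by the stress factor ATF4, 4 were lower on both hairpin arrays and CHAC1 was mixed (0.12 and −0.39), with TRIB3 at 8.34 in the control, 6.56 under hairpin 2 and 6.58 under hairpin 5.

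The element that p53 reads consists of a pair of decamers with a C and a G at fixed places in their core. It was searched for in the stretch from 250 bases before to 50 bases after gene starts, from RefSeq on build GRCh38.p14, in which 28 of the 34 genes had at least 1 window. An exact p53 consensus decamer, which reads the same on both strands, was present near a start of 7 of these 28 genes (25%), and near a start of 8.06% of all 27305 genes with a window. The 7 were ABCA12, AEN, DDB2, FAS, FDXR, PLK2 and SESN1. A pair of decamers with at most 2 mismatches in all and at most 1 base between them was found for 4 of the 28 (14.3%) and for 0.674% of all genes. These 4 are shown with 30 bases on each side where the window allows, because they place the p53 element beside genes whose values follow. Capitals mark the decamers.
DDB2, chr11:47214939-47215023, plus strand: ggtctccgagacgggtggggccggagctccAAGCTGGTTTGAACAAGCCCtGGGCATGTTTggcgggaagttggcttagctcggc
AEN, chr15:88621276-88621355, plus strand: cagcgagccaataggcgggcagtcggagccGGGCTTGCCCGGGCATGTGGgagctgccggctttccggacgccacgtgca
FAS, chr10:88991279-88991358, plus strand: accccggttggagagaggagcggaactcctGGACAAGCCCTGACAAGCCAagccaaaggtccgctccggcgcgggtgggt
MDM2, chr12:68808893-68808972, plus strand: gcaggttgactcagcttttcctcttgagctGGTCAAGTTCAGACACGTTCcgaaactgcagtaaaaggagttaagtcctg

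DDB2 holds 3 decamers in a row that straddle its start, 2 of them exact. A match describes the letters only, and elements farther from the start lie outside the window. Of these genes, DDB2, AEN and MDM2 were higher than the control on both hairpin arrays, and FAS was higher with hairpin 2 and lower with hairpin 5.

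Most p53 targets stayed within 1.5-fold of the control, as did most genes tested, and the set did not move as one. At least 1 hairpin moved 6 of the 28 tested members by 1.5-fold or more. Of the 28 genes at the tested level, 15 were higher than the control with both hairpins, 8 were lower with both, and 5 differed in sign between the hairpins: CCNG1, FAS, PERP and TRIAP1 were higher with hairpin 2 only, a pattern of 24.5% of all genes tested, and CDKN1A with hairpin 5 only (13.6%). Among all 11865 genes tested, 29% were higher with both hairpins and 32.3% lower with both, so the higher share among the p53 targets (53.6%) lay above that background and the lower share (28.6%) near it. The median difference of the p53 targets was 0.13 with hairpin 2 and 0.07 with hairpin 5, beside 0.03 and −0.06 for all genes tested. Without hairpin 2 the median of the 28 was thus 0.07, and 16 were higher than the control and 12 lower. Of all genes tested, 29% were higher with both hairpins and 13.6% with hairpin 5 only. Another 32.3% were lower with both, and 24.5% were higher with hairpin 2 but lower with hairpin 5. All 28 had passed the filter on the control array alone, the dimmest being SERPINB5 at 4.82. The 3 genes under the tested level were ABCA12, EDA2R and SPATA18.

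GADD45A was the 1 member that both hairpins moved the same way by 1.5-fold or more, which 2.35% of all genes tested did; 0 members did so by 2-fold or more, against 0.379% of all genes. Hairpin 2 alone gave 1 member at least 1.5-fold higher, SERPINB5 (5.93% of all genes), and 3 lower, CDKN1A, GADD45A and GDF15 (3.14%). Hairpin 5 alone gave 0 members that much higher (2.84%) and 3 lower, GADD45A, PMAIP1 and POLH (9.79%). The hairpins lay at least 1.5-fold apart for 3 members, CDKN1A, FAS and GDF15, as for 14.7% of all genes. The median size of a p53 target's mean difference from the control was 0.22 on the log2 scale, about as large as the median distance between its hairpin arrays, 0.19. Over all genes tested these medians were 0.18 and 0.25. In limma, 0 members and 0 genes (0%) passed an adjusted p of 0.05. An unadjusted p under 0.05 was reached by 277 genes (2.33%), of which GADD45A was the 1 member. The adjusted p was 0.999 for every member tested. The hairpins were the only replicates and the control is a single array, so the cultures, hairpins and arrays cannot be told apart. The p-values rest on the spread between hairpins, drawn by limma toward its size over all genes (4.77 of 5.77 degrees of freedom).

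**Figure D1:**
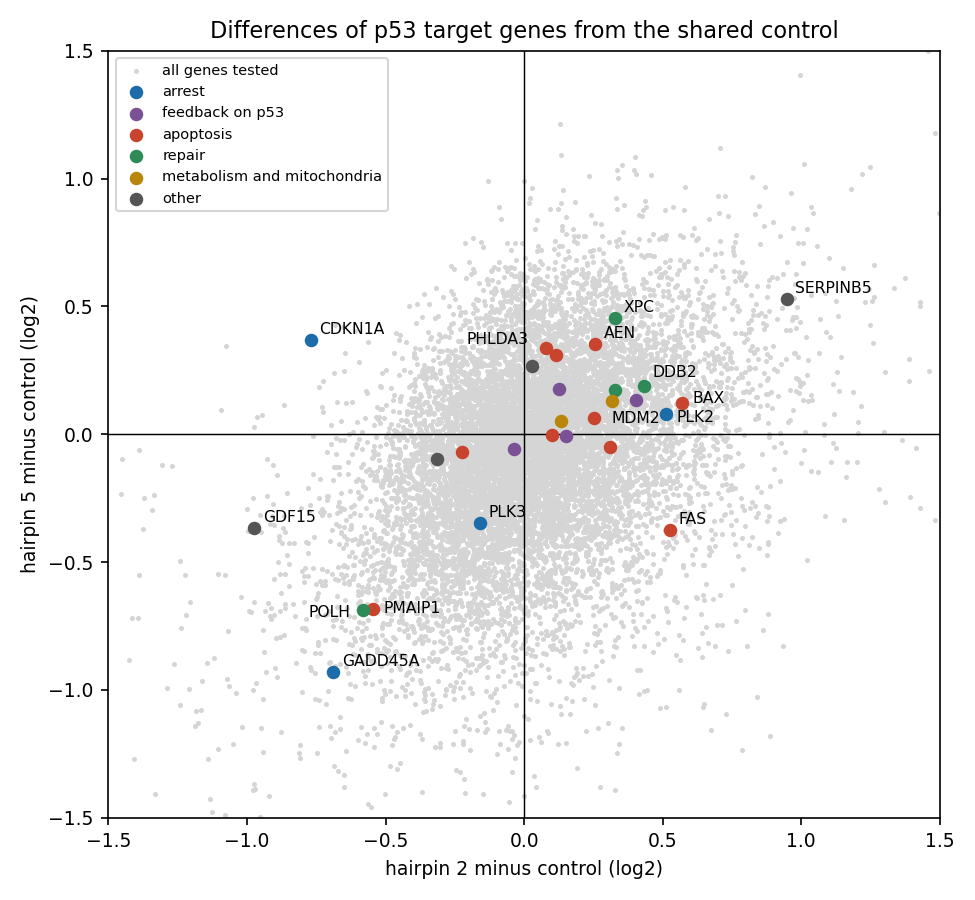
Difference from the control array on the log2 scale with hairpin 2 (horizontal) and hairpin 5 (vertical) for the 28 tested p53 targets, coloured by role, over all genes tested in grey; both axes share 1 control array, and 111 grey genes lie outside the axes. Names are given for genes over 0.33 in size on either axis: SERPINB5 stands at the upper right, GADD45A, PMAIP1 and POLH at the lower left, and CDKN1A alone at the upper left among the p53 targets.

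Arrest genes were split. GADD45A, which binds PCNA and CDK1 and slows entry into mitosis, read 9.55 in the control, 8.86 under hairpin 2 and 8.62 under hairpin 5. Both hairpin arrays lay below the control, by 1.61-fold and 1.904-fold. The mean difference of GADD45A was −0.81 ± 0.17 (SD, n = 2 hairpins), with a 95% limma interval from −1.4999 to −0.12 that leaves out 0 and an unadjusted p of 0.0290 in limma. In RNA pooled from a whole culture, less transcript per cell and fewer cells with the transcript cannot be told apart. CDKN1A, the p21 inhibitor of cyclin-dependent kinases, read 8.35 in the control, 7.59 under hairpin 2 and 8.72 under hairpin 5. The hairpins fell on opposite sides of the control, 1.70-fold below it and 1.29-fold above it, and CDKN1A was the 1 member whose hairpin arrays lay over 2-fold apart (2.20-fold), as did 3.17% of all genes tested. Its mean difference was −0.20 ± 0.80 (SD, n = 2), with an interval from −1.41 to 1.01.

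The Polo-like kinases of this group, which act in the stress response and at centrosomes, went opposite ways. PLK2 read 6.34 in the control, 6.85 under hairpin 2 and 6.42 under hairpin 5, so hairpin 2 was well above a control and hairpin 5 that were nearly level. PLK3 read 5.82, 5.66 and 5.47 on the same arrays, with both hairpins under the control. Their mean differences were 0.30 ± 0.31 and −0.25 ± 0.13 (SD, n = 2), and both intervals include 0. A dimmer PLK3 probe set read 3.85, 3.97 and 4.13, with both hairpins over the control, so the direction of PLK3 depends on the probe set.

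Of the 10 apoptosis genes tested, 5 were above the control with both hairpins, 2 below it and 3 mixed. Among all genes tested, 29% were above it with both and 32.3% below it. The medians of the apoptosis genes were 0.18 and 0.03, beside 0.03 and −0.06 for all genes tested. PMAIP1, the BH3-only protein NOXA that frees the mitochondrial death pathway, was the lowest of them. It read 8.46 in the control, 7.91 under hairpin 2 and 7.78 under hairpin 5, below the control by 1.46-fold and 1.60-fold. The mean difference of PMAIP1 was −0.61 ± 0.10 (SD, n = 2), with an interval from −1.28 to 0.06. A second PMAIP1 probe set of like brightness read 8.04, 7.88 and 8.05, where hairpin 5 was level with the control.

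BAX, the effector that opens the mitochondrial outer membrane, read 6.45 in the control, 7.02 under hairpin 2 and 6.57 under hairpin 5. Hairpin 2 was 1.48-fold and hairpin 5 1.09-fold above the control, and the mean difference was 0.34 ± 0.32 (SD, n = 2). AEN, a nuclease that digests DNA in dying cells, read 5.37, 5.63 and 5.73, with a mean difference of 0.30 ± 0.07. TP53INP1, a cofactor that promotes p53 phosphorylation and autophagy, read 5.52, 5.64 and 5.83, with a mean difference of 0.21 ± 0.14. For AEN the hairpin arrays stood closer to each other than to the control, for BAX and TP53INP1 they did not, and the limma intervals of all 3 genes include 0.

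The other apoptosis genes had smaller mean differences in size, though PHLDA3 (0.208) was close to TP53INP1 (0.213). PHLDA3, which blocks AKT at the membrane, was 0.08 and 0.34 higher with hairpin 2 and hairpin 5. TP53I3, an oxidoreductase, was 0.25 and 0.06 higher. TRIAP1, which protects cells from apoptosis, differed by 0.10 and −0.003. Among membrane proteins, the desmosome component PERP differed by 0.31 and −0.05, and the TRAIL receptor TNFRSF10B by −0.22 and −0.07. Dimmer TNFRSF10B probe sets at the tested level differed by 0.41 and 0.05, and by 0.41 and −0.46. EDA2R, a receptor of the tumour necrosis factor family, read 3.20, 2.97 and 3.09, under the tested level on every array.

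FAS, the receptor of the extrinsic death pathway, had the widest distance between hairpins among the p53 targets after CDKN1A. Its brightest probe set read 5.04 in the control, 5.57 under hairpin 2 and 4.67 under hairpin 5, a mean difference of 0.07 ± 0.64 (SD, n = 2). Of its 4 probe sets at the tested level, the other 3 were higher than the control with both hairpins, 1 of them by 1.08 and 0.30. That probe set read 3.279 in the control and another 3.212, both under the tested level (3.285). Both reached the level only because the hairpin arrays raised their means, so the filter favoured higher values there. Averaged over all its probe sets and both hairpins, FAS stood at 0.26. The interferon-stimulated genes IFI6 and IFIT1, also highest with hairpin 2, differed by 5.73 and 0.46 and by 6.79 and 2.19. The part of that response in the FAS and CDKN1A values was not tested.

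Repair genes split into 3 that were higher with both hairpins and 1 that was lower, beside 29% higher and 32.3% lower among all genes tested. XPC, which finds helix-distorting lesions for nucleotide excision repair, read 7.19 in the control, 7.52 under hairpin 2 and 7.65 under hairpin 5. Its mean difference was 0.39 ± 0.09 (SD, n = 2), with an interval from −0.28 to 1.06. DDB2, which detects ultraviolet lesions ahead of XPC and carries the decamers shown above, read 7.11, 7.54 and 7.30. The difference of DDB2 was 0.31 ± 0.17, with an interval from −0.38 to 1.00. RRM2B, the p53-induced subunit of ribonucleotide reductase, read 6.82, 7.15 and 6.995, a difference of 0.25 ± 0.11. The 3 genes thus lay 0.25 to 0.39 above the control with every hairpin array on the same side.

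POLH, the polymerase that copies past ultraviolet lesions, went the other way. Its brightest probe set read 5.01 in the control, 4.43 under hairpin 2 and 4.32 under hairpin 5, below the control by 1.496-fold and 1.612-fold, just short of 1.5-fold with hairpin 2. The mean difference of POLH was −0.64 ± 0.08 (SD, n = 2), with an interval from −1.30 to 0.03. Only 1 other of its 6 probe sets reached the tested level, and it differed by −0.12 and −0.27. That probe set read 3.425 in the control, 3.308 under hairpin 2 and 3.157 under hairpin 5, close to the level. The mean over all 6 was −0.13.

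Genes that feed back on p53 stayed within 1.5-fold of the control with their brightest probe sets. MDM2, the ubiquitin ligase that degrades p53, read 8.34 in the control, 8.74 under hairpin 2 and 8.47 under hairpin 5 with its brightest probe set. Its mean difference was 0.27 ± 0.19 (SD, n = 2), with an interval from −0.43 to 0.97. The 3 dimmer MDM2 probe sets at the tested level gave opposite signs for the hairpins, and the mean over its 10 probe sets was 0.08. PPM1D, the phosphatase WIP1 that switches off damage signalling, was 0.13 and 0.18 higher, and by a dimmer probe set 0.06 and 0.56 higher. CCNG1, a cyclin that recruits a phosphatase to MDM2, differed by 0.15 and −0.01, and FBXO22, a ubiquitin ligase subunit that acts on methylated p53, by −0.04 and −0.06. Dimmer FBXO22 probe sets at the tested level differed by 0.07 and 0.12, and by −0.19 and −0.50.

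Of the metabolic and mitochondrial targets, both genes tested, TIGAR and SESN1, lay above the control with both hairpins, where 29% of all genes tested did, and their limma intervals include 0. TIGAR, which lowers glycolytic flux, read 7.004 in the control, 7.32 under hairpin 2 and 7.14 under hairpin 5, a mean difference of 0.22 ± 0.13 (SD, n = 2). SESN1, a sestrin that restrains mTORC1, was 0.13 and 0.05 higher. SPATA18, which acts in the turnover of damaged mitochondria, read 2.995, 2.77 and 3.09, under the tested level.

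The remaining targets held the widest range. SERPINB5, the serpin maspin, read 4.82 in the control, 5.76 under hairpin 2 and 5.34 under hairpin 5. Both hairpin arrays were above the control, by 1.93-fold and 1.44-fold, and the mean difference of SERPINB5 was 0.74 ± 0.30 (SD, n = 2), with an interval from −0.02 to 1.495. Over both probe sets it averaged 0.43, and the other lay under the tested level. GDF15, a secreted stress cytokine of the TGF-beta family, read 10.92, 9.94 and 10.55, below the control by 1.96-fold with hairpin 2 and 1.29-fold with hairpin 5. Its mean difference was −0.67 ± 0.43 (SD, n = 2), with an interval from −1.52 to 0.18. That value rests on a probe set whose name marks possible cross-hybridisation; without such probe sets GDF15 was read by a dim one (3.27 on the control array) and the difference turned to 0.08.

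CYFIP2, part of the WAVE actin-regulating complex, read 7.18 in the control, 6.86 under hairpin 2 and 7.08 under hairpin 5, a mean difference of −0.21 ± 0.16 (SD, n = 2), and its second probe set was also lower with both hairpins. ZMAT3, an RNA-binding regulator of splicing, was 0.03 and 0.27 higher. The lipid transporter ABCA12 read 2.62, 2.24 and 2.38, under the tested level.

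Among the members with lower values, GADD45A, PMAIP1 and GDF15 are also known to respond to ATF4 or its partner DDIT3. The other members were not sorted by such a response. On these arrays TRIB3 differed by −1.78 and −1.76, ASNS by −1.29 and −2.04 and DDIT3 by −1.37 and −2.04. SESN2, a target of p53 as well as of ATF4, differed by −0.61 and −0.31. Of the 5 ATF4 reference genes 4 were lower with both hairpins, as were 32.3% of all genes tested, and CHAC1 was mixed (0.12 and −0.39). The part of ATF4 in the lower values of GADD45A, PMAIP1 and GDF15 was not tested.

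**Figure D2:**
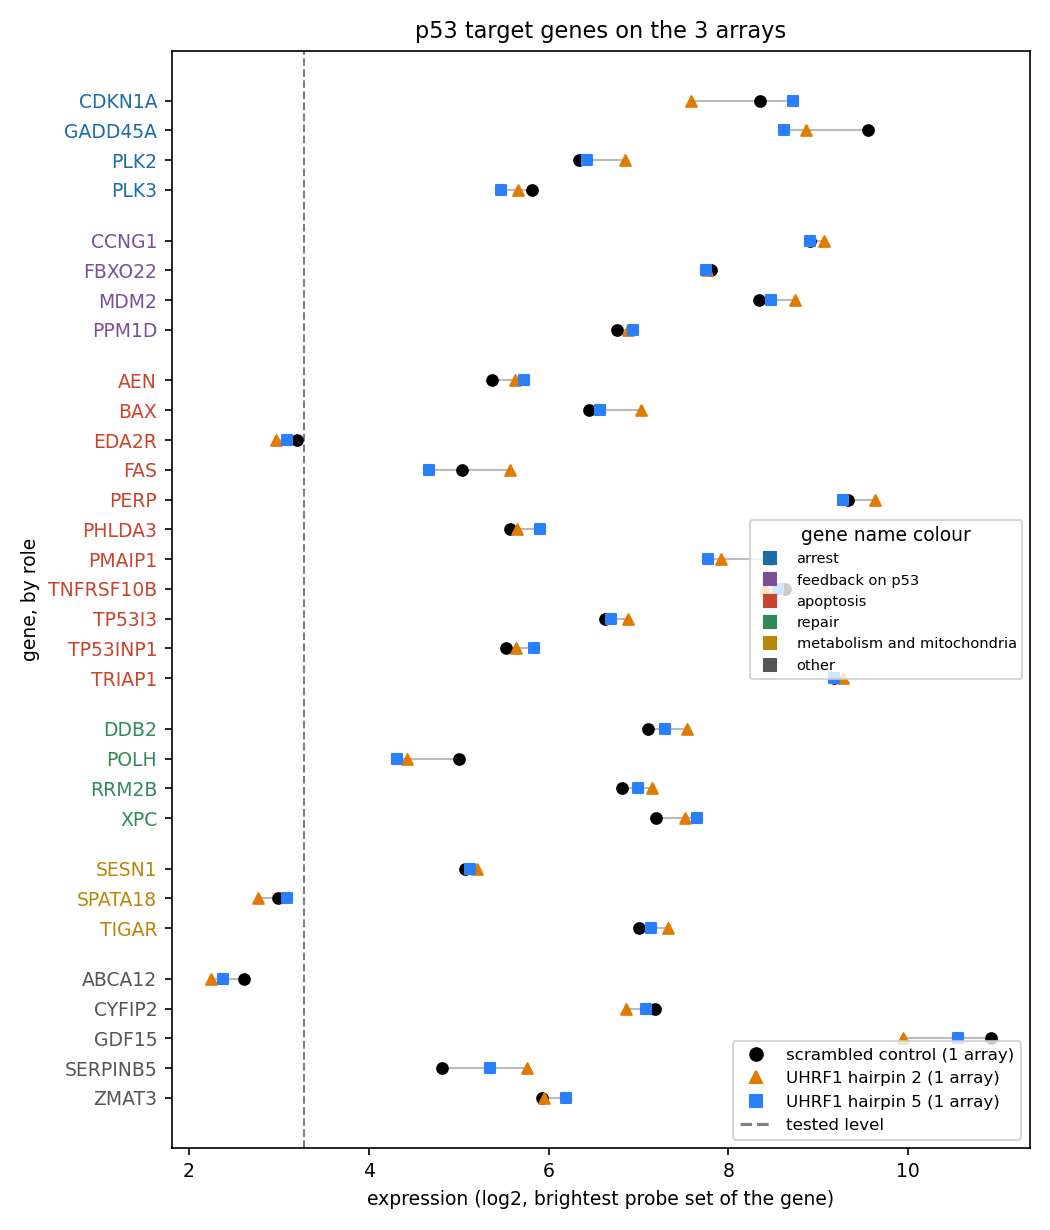
Log2 expression of the brightest probe set of each of the 31 p53 targets for the control (circles), hairpin 2 (triangles) and hairpin 5 (squares), grouped by role, 1 array each, with the tested level as a dashed line. GADD45A, PMAIP1 and POLH show both hairpins left of the control, SERPINB5 and XPC both to the right, and CDKN1A and FAS 1 on each side; levels of different genes cannot be compared because probe sets differ in affinity.

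Probe sets of 1 gene did not always give 1 direction. Of the 77 probe sets, 49 were at the tested level. Of these, 24 were higher with both hairpins, 11 lower and 14 mixed, beside 30.6% higher and 31.2% lower among all 19251 named probe sets at that level. Some of the 24, such as the FAS probe sets at 3.279 and 3.212 in the control, reached the level only through the hairpin arrays. Of the 14 genes with at least 2 probe sets at the tested level, BAX and PPM1D had all of them higher with both hairpins, and CYFIP2 and POLH all of them lower. The second POLH probe set barely reached the level, with the help of its control reading (3.425), and adds little to that direction. FBXO22, PLK3 and TNFRSF10B had probe sets lower and probe sets higher with both hairpins. In a fit over all 41091 named probe sets, 1219 (2.97%) had an unadjusted limma p under 0.05 and 0 passed after adjustment. The 4 member probe sets among them were the brightest ones of GADD45A, PMAIP1, POLH and SERPINB5.

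Averaging over probe sets changed several sizes by over 1.5 times. The mean of PMAIP1 was then −0.34, that of GDF15 −0.23 and that of PLK3 −0.10. TP53INP1 stood at 0.12, ZMAT3 at 0.08, FBXO22 at −0.02 and PPM1D at 0.23.

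**Figure D3:**
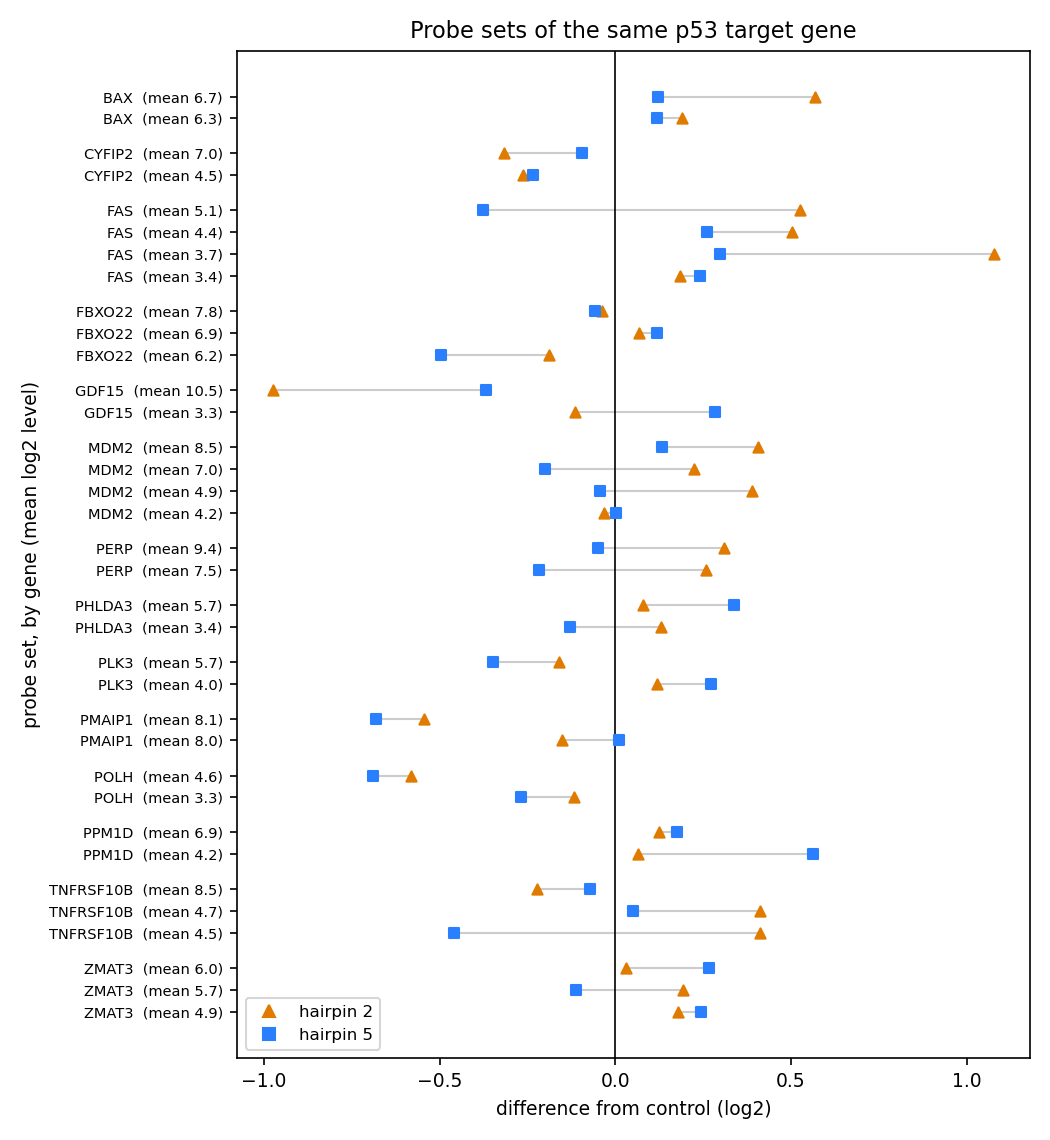
Difference from the control array (log2) with hairpin 2 (triangles) and hairpin 5 (squares) for each probe set at the tested level of the 14 p53 targets with at least 2 such probe sets, labelled with its mean level. The 4 MDM2 and 3 TNFRSF10B probe sets lie on both sides of 0, while those of BAX lie to the right and those of CYFIP2 and POLH to the left.

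Further p53 targets and the machinery around p53 were counted in the same way. Of 34 further p53 targets tested, 13 lay above the control with both hairpins, 9 below it and 12 on both sides. These shares were 38.2% higher and 26.5% lower, beside 29% and 32.3% of all genes tested. The medians were 0.06 and 0.03, nearer to the background than those of the 28 members. The highest by the smaller of both differences were KITLG, the ligand of the receptor KIT (0.51 and 0.76), the small GTPase RRAD (0.67 and 0.50) and the transcriptional repressor BCL6 (1.13 and 0.46). The lowest were SUSD6 (−0.58 and −0.51), the autophagy regulator DRAM1 (−0.89 and −0.50) and the repressor E2F7 (−0.33 and −0.35). Averaged over probe sets and hairpins, KITLG stood at 0.30, BCL6 at 0.26 and RRAD at 0.17, and RRAD turned to −0.05 when probe sets named _x_at or _s_at were left out. TNFRSF10A, the other TRAIL death receptor, differed by −0.32 and −1.22 and was picked after its values were seen. Of 4 p53 targets that interferon also induces, XAF1 read 2.91 in the control, 4.80 under hairpin 2 and 2.50 under hairpin 5. The control and hairpin 5 readings of XAF1 lay under the tested level, and it was tested only because hairpin 2 raised its mean. Its difference with hairpin 5 cannot be read as a change, because such low levels may be background. PML differed by 0.15 and −0.15, and TLR3 and TRIM22 lay under the tested level.

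Among 23 regulators of p53 that were tested, 11 lay under the control with both hairpins, 5 above it and 7 on both sides. These shares were 47.8% lower and 21.7% higher, beside 32.3% and 29% of all genes tested. The medians were −0.02 and −0.08, beside 0.03 and −0.06 for all genes tested. HIPK2, a kinase that phosphorylates p53, differed by −0.56 and −0.79, the deacetylase SIRT1 by −0.34 and −0.48, and MDM4, the partner of MDM2 that masks p53, by −0.32 and −0.69. KAT5, an acetyltransferase that acts on p53, was 0.51 and 0.47 higher, the chaperone DAXX 0.28 and 0.28 and the p53 relative TP73 0.06 and 0.25. As means over probe sets and hairpins, HIPK2 stood at −0.21, TP73 at 0.02 and DAXX at 0.18, and MDM4 turned to 0.04, or to 0.47 without _x_at probe sets.

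Cell cycle genes that p53 silences through p21 and the DREAM repressor complex gave a mixed picture. Both hairpins lay under the control for 10 of the 20 tested and above it for 7, and 3 were mixed. These shares were 50% lower and 35% higher, beside 32.3% and 29% of all genes tested. The medians were −0.03 and −0.18, beside 0.03 and −0.06 for all genes tested. The kinase BUB1 differed by −0.34 and −0.67, the centromeric histone CENPA by −0.33 and −0.71 and the transcription factor E2F1 by −0.30 and −0.30, while FOXM1 was 0.21 and 0.40, CDC20 0.38 and 0.13 and MYBL2 0.11 and 0.37 higher. Over its probe sets BUB1 averaged −0.05. None of the genes named in these 3 lists passed limma over all genes tested.

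**Figure D4:**
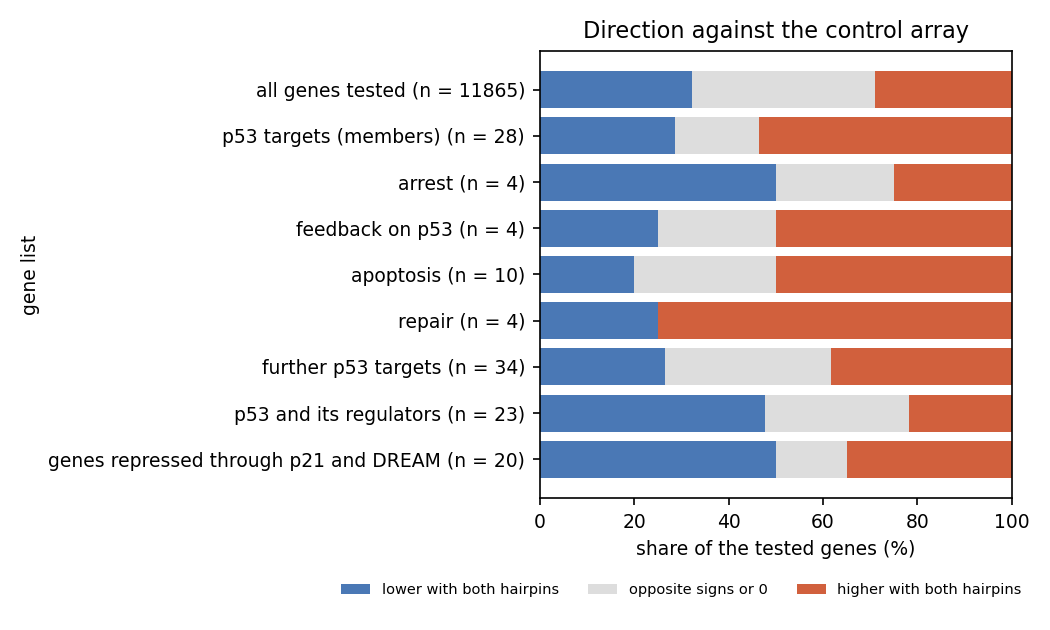
Share of tested genes (%) that were lower than the control with both hairpins (blue), opposite in sign (grey) or higher with both (red), for all genes tested, the 28 p53 targets, their larger role groups and the further lists, with the number of genes beside each name. The p53 targets show 53.6% higher beside 29% of all genes tested; the role groups hold 4 to 10 genes each.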

How the data were processed

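RNA from 1 control and 2 UHRF1 hairpin arrays was labelled as biotinylated cRNA. Per the submitters' processing notes, the authors used RMA and Affymetrix Expression Console to make the deposited log2 values; no version or setting is given. Base 2 was taken from the span of the data, and centring is unstated. RMA values carry no detection call, so low levels may be background and their differences are then compressed.

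Probe sets were named through the platform annotation: 41091 had 1 gene, 1801 several and 11721 none. Gene identifiers matched a RefSeq table (GRCh38.p14) for 41037 of those with 1 gene. The 1 probe set shared by a member and other genes was not used. A gene's brightest probe set (by mean over arrays) stood for it. The tested level, log2 3.28, is the 40th percentile of these gene means, and the 11865 genes at or above it entered a limma 3.58.1 fit (lmFit, eBayes; R 4.3.3), whose p-values are two-sided and adjusted by Benjamini-Hochberg over all of them. The hairpins share a source label and served as 2 replicates; 1 residual degree of freedom per gene was moderated to 5.77, and the lone control is assumed to vary like them. An exact permutation could not go below p = 0.333. The fit was tested on simulated data with changes far larger than those of the members. That run does not show how well differences of their size would be found.

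The members, role groups and other lists were chosen with earlier results of these data known. The values of all members are given. Members were picked for intervals as CDKN1A, MDM2, up to 4 of each role group, and the 3 furthest apart between hairpins. Within a role group the pick was by the smaller of both hairpin differences. Intervals are printed or described for these except PPM1D, FBXO22, RRM2B, FAS, CYFIP2 and ZMAT3. Elsewhere, up to 3 genes per list and direction were picked. Alternatives covered the choice of probe set, the filter, the normalization, the variance prior, the fold threshold and each hairpin left out.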

Additional observations from a re-analysis of the deposited data

How the results depend on the processing

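The count of p53 targets higher with both hairpins stayed within 1.5 times of 15 under every alternative run. The number of members tested was not constant, from 19 without _x_at or _s_at probe sets to 31 with no filter. Of all genes tested, 27.5% (median centring) to 31.3% (probe sets averaged per gene) were higher with both. With cyclic loess, 5 rather than 8 of the 28 were lower with both hairpins, where 32.7% of all genes tested were under that setting. Also with cyclic loess, 2 rather than 1 were at least 1.5-fold from the control with both hairpins. In the main setting 2.35% of all genes tested were that far from it. At a 2-fold or 3-fold threshold the count of members was 0. With a single hairpin in place of both, 3 to 4 members were at least 1.5-fold from the control, 16 to 19 were higher and 9 to 12 lower, and the median difference was 0.0715 to 0.129. Of all genes tested, 29% were higher and 32.3% lower with both hairpins. A further 24.5% were higher with hairpin 2 and lower with hairpin 5, and 13.6% the reverse. The median of the members, 0.14 with both hairpins averaged, was 0.0920 with probe sets averaged per gene and 0.0920 with no filter. limma called 1 gene over all genes, HSPE1, with an intensity trend in the prior, and 0 under the other alternatives; with no filter 533 genes of 19775 had an unadjusted p under 0.05. GDF15 turned to 0.0845 without _x_at probe sets. MDM4 turned to 0.0376 with the mean of its probe sets and to 0.47 without _x_at probe sets, with or without those named _s_at, and RRAD turned to −0.0465 without both kinds. The cause was not tested. No paired analysis was possible because the labels give the control no replicate number shared with the hairpins.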
